A study of Mus musculus with 4 samples.

Results

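The promoter peaks of the mitochondrial ribosomal protein genes, Mrpl for the large subunit and Mrps for the small subunit, were followed in chromatin accessibility data from a cell line that the labels give as LβT2, and as LβT2b in the sample titles and growth protocol. The assay was ATAC-seq, whose transposase cuts accessible DNA and tags it for sequencing. A peak was counted when the gene name in the authors' annotation began with Mrpl or Mrps and a number and its annotation was promoter-TSS. This gave 215 peaks with 62 gene names, 24 Mrps and 38 Mrpl, among 45614 promoter peaks and 417506 peaks of all kinds. LβT2 cells are a long-used immortalised mouse line that models gonadotropes, which secrete luteinizing and follicle-stimulating hormone from the pituitary. All cells were kept in serum-free medium overnight and then received vehicle (2 libraries) or activin A, a TGFβ family ligand, at 1 nM (2 libraries) for 6 h. The study concerned the regulation of the follicle-stimulating hormone β subunit gene, and the Mrp promoters show how a housekeeping system looked under the same ligand. The labels do not say whether the libraries came from separate cultures, so p-values measure the spread between these libraries, which may be technical.

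The mitochondrial ribosome translates the few messenger RNAs encoded in mitochondrial DNA, whose products are subunits of the oxidative phosphorylation complexes. Its ribosomal RNAs come from mitochondrial DNA, but all of its proteins are encoded in the nucleus, made in the cytosol and imported. Their nuclear genes are expressed in nearly all cell types, and many respiratory genes carry promoter motifs for nuclear respiratory factor 1 (NRF1), for ETS family factors such as GABPA, and for YY1. The symbols do not always follow the structure: the product of Mrps18a sits in the large subunit, and that of Mrps36 has since been assigned to the α-ketoglutarate dehydrogenase complex.

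High-quality autosomal reads numbered between 172146474 and 224226184 per library, with 70692 to 178358 called peaks, of which 10402 to 13398 were promoter peaks. Vehicle library 2 had the most peaks. The enrichment of reads at transcription starts was 2.72 and 2.48 under vehicle and 3.12 and 3.04 with activin, so the groups did not overlap in this quality measure, and its part in the differences below was not tested. Of 8 gonadotrope markers, Lhb, Cga, Gnrhr and Gata2 had a promoter peak in every library, Pitx1 and Foxl2 in 3, Nr5a1 in 1 and Fshb in 0. Of 7 markers of other pituitary lineages, 0 had one in every library and Prl, Tshb, Pou1f1 and Ghrhr had none. Pomc had a weak one in both vehicle libraries and neither activin library (−log10 q of 1.58 and 1.31), and Gh and Tbx19 had one in vehicle library 2 alone (3.20 and 1.54). In libraries made from many cells, more cells with an open promoter and more opening in each cell cannot be told apart.

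The sequences of 7 Mrp promoters are shown because they carry the features that recurred in the list: NRF1 letters, ETS letters, and a start shared with a neighbouring gene read in the opposite direction. Each is the RefSeq GRCm38.p6 sequence upstream of the start, 5′ to 3′ on the gene's strand, and it is cut at the neighbour's start where there is one. Capitals mark matches on either strand to NRF1 (GCGCANGCG), ETS (CCGGAAG), YY1 (AANATGGCG) and NF-Y (CCAAT) letters. No motif contains another, but an NRF1 match can lie on both strands of the same stretch.
Mrpl17, chr7:105811088-105811337, minus strand: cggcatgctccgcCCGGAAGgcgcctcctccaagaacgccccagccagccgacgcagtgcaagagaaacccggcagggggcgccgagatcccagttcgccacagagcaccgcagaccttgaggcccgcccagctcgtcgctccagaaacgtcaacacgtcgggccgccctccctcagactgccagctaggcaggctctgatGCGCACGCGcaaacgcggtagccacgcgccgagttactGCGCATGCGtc
Mrpl12, chr11:120484387-120484636, plus strand: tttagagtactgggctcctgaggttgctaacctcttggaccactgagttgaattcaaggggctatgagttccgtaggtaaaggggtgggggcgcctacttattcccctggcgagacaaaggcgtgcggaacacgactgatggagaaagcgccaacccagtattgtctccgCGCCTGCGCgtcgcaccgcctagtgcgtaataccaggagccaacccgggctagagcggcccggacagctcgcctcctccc
Mrpl45, chr11:97315466-97315715, plus strand: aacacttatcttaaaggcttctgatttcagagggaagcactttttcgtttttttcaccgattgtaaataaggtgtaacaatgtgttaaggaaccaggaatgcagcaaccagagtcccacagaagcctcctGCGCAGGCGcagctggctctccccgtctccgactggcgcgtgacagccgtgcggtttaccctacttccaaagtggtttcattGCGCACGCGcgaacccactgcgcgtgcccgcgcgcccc
Mrpl22, chr11:58171414-58171663, plus strand: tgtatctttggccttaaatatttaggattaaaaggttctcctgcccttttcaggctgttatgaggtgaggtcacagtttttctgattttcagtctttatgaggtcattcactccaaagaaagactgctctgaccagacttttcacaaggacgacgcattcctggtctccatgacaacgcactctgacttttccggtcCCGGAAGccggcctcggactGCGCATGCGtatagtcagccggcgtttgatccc
Mrpl32, chr13:14613038-14613241, minus strand, between its start and that of Psma2: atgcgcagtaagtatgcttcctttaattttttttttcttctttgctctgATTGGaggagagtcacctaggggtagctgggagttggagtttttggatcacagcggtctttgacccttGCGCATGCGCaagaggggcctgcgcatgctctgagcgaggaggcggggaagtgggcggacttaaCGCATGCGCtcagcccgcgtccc
Mrps12, chr7:28741822-28741967, minus strand, between its start and that of Sars2: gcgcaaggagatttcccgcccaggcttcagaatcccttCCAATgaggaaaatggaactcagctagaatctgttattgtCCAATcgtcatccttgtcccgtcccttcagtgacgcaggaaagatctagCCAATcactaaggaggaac
Mrpl18, chr17:12916092-12916328, minus strand, between its start and that of Tcp1: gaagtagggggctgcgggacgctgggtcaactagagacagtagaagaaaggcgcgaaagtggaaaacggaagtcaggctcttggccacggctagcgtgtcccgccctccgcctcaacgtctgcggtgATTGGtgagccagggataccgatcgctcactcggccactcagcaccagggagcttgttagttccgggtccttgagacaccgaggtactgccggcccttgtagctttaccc
Mrpl17 held 2 NRF1 matches and 1 ETS match, Mrpl45 held 2 NRF1 matches, and Mrpl22 held 1 of each. The 204 bp between Mrpl32 and Psma2, a proteasome subunit gene, held 3 NRF1 matches, a pair of them on opposite strands of the same stretch. The 146 bp between Mrps12 and Sars2, the gene of the mitochondrial seryl-tRNA synthetase, held 3 NF-Y matches and no NRF1 match. A match is a description of the letters and not a measured binding site.

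Over all of the list, the RefSeq promoter table held 75 starts of 69 Mrp genes, each with a window from 250 bases before to 50 bases after the start. NRF1 letters were found in 16 of these windows (21.3%), against 6.25% of all 32851 windows. ETS letters were found in 26 (34.7%, all windows 8.86%) and YY1 letters in 11 (14.7%, all windows 2.38%). In windows of other mitochondrial translation genes and of oxidative phosphorylation genes, NRF1 letters stood in 20.4% and 28.0%, ETS letters in 33.3% and 22.7%, and YY1 letters in 14.8% and 13.3%, in that order. Cytosolic ribosomal protein windows held NRF1 letters in 12.0%, ETS letters in 34.7% and YY1 letters in 13.3%. SP/KLF letters (GGGCGG) stood in 52.0% of Mrp windows and 35.7% of all windows, and NF-Y letters in 40% and 37.4%. The palindromic SMAD letters (GTCTAGAC), of interest because activin signals through SMAD proteins, stood in 0 of 75 Mrp windows and in 0.213% of all windows. AP-1 letters (TGANTCA) stood in 4.00% of Mrp windows against 7.81%, CRE letters (TGACGTCA) in 2.67% against 1.79%, ZBTB33 letters (CTCGCGAG) in 2.67% against 0.919%, and TATA letters (TATAAA) in 6.67% against 13.6%. The median GC content of the Mrp windows was 58.7%, against 52.7% for all windows, and the median ratio of observed to expected CpG was 0.820 against 0.384. The letters were counted without correction for this difference in base composition.

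**Figure D1:**
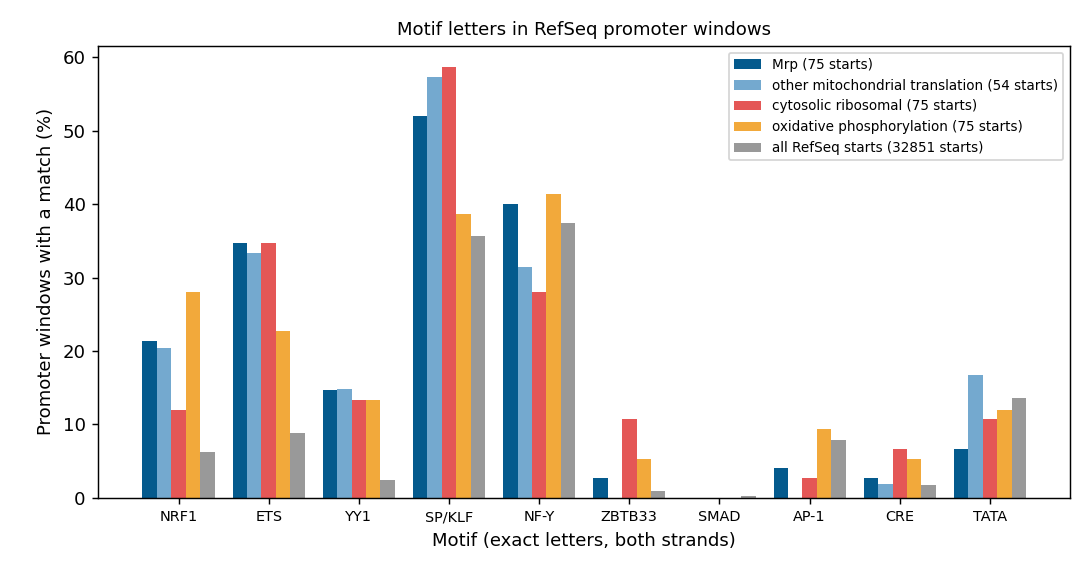
Share of RefSeq promoter windows (vertical axis, percent) that hold the exact letters of each motif on either strand (horizontal axis), with a bar for each gene list. NRF1, ETS and YY1 letters stood in 21.3%, 34.7% and 14.7% of Mrp windows and in 6.25%, 8.86% and 2.38% of all windows.

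An opposite start within 1 kb was found at 28 of the 75 Mrp starts (37.3%), against 11.3% of all starts, 30.7% of oxidative phosphorylation starts, 24.1% of the other mitochondrial translation starts and 18.7% of cytosolic ribosomal protein starts. Several neighbours also serve mitochondria: Mrps12 faced Sars2 at 147 bp, Mrpl47 faced Ndufb5, a complex I subunit gene, at 308 bp, and Mrpl43 faced Twnk, the gene of the mitochondrial DNA helicase, at 116 bp. Mrpl46 and Mrps11, a large and a small subunit gene, faced each other at 42 bp and lay under the same peak in every library.

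These shared starts bear on the gene names of the peaks. In the authors' annotation the gene name is that of the nearest start, while the promoter label carries the identifier of a transcript, and the pair can differ. Of the 215 peaks, 168 had a promoter label of the named gene, 38 of another named gene and 9 of a gene that the files do not name. The median distance between peak centre and named start was 153 bp, with 167 peaks within 1 kb and 48 beyond it. The 48 distant peaks belonged to 13 genes. For 29 of them the promoter label was still of the named gene, as at Mrps18a, where the distance of 14.2 to 14.4 kb was measured to another start of the gene. The other 19 distant peaks, at 6 genes, carried promoter labels of other genes: Axin1 for Mrpl28, Oscp1 for Mrps15, Tmem63b for Mrpl14, Cuedc1 for Mrps23, Tpd52 for Mrps28 and, in vehicle library 2, Zfp661 for Mrps5. Conversely, 44 promoter peaks labelled by identifier as promoters of 16 Mrp genes carried another gene's name, and 4 of those genes had no promoter peak under their own name.

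Promoter peaks under an Mrp name numbered 54 and 50 with vehicle and 55 and 56 with activin. They covered 49 and 48 genes with vehicle and 49 and 52 with activin, or 48.5 ± 0.707 against 50.5 ± 2.12 (SD, n = 2 libraries). Activin library 1 had no more genes than vehicle library 1, so the groups touched. The difference of 2 genes gave p = 0.667 in a 2-sided exact permutation test, for which 2 against 2 libraries cannot go below 0.333. A promoter peak in every library was found for 38 of the 62 genes (61.3%), where 44.9% of all 15603 gene names with any promoter peak had one. The share was 62.5% for Mrps (15 of 24) and 60.5% for Mrpl (23 of 38). The share was 75% for the other mitochondrial translation genes (33 of 44), 82.6% for cytosolic ribosomal proteins (57 of 69) and 68.3% for oxidative phosphorylation (43 of 63).

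The 24 genes missing from some libraries left 50 gaps, each a gene and a library. In 18 gaps a promoter peak lay at the same region under another gene's name, in 18 a peak of the gene was labelled exon or intron, and in 14 no peak was called there. For 17 of the 24 genes a peak of some name was present in each missing library.

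**Figure D2:**
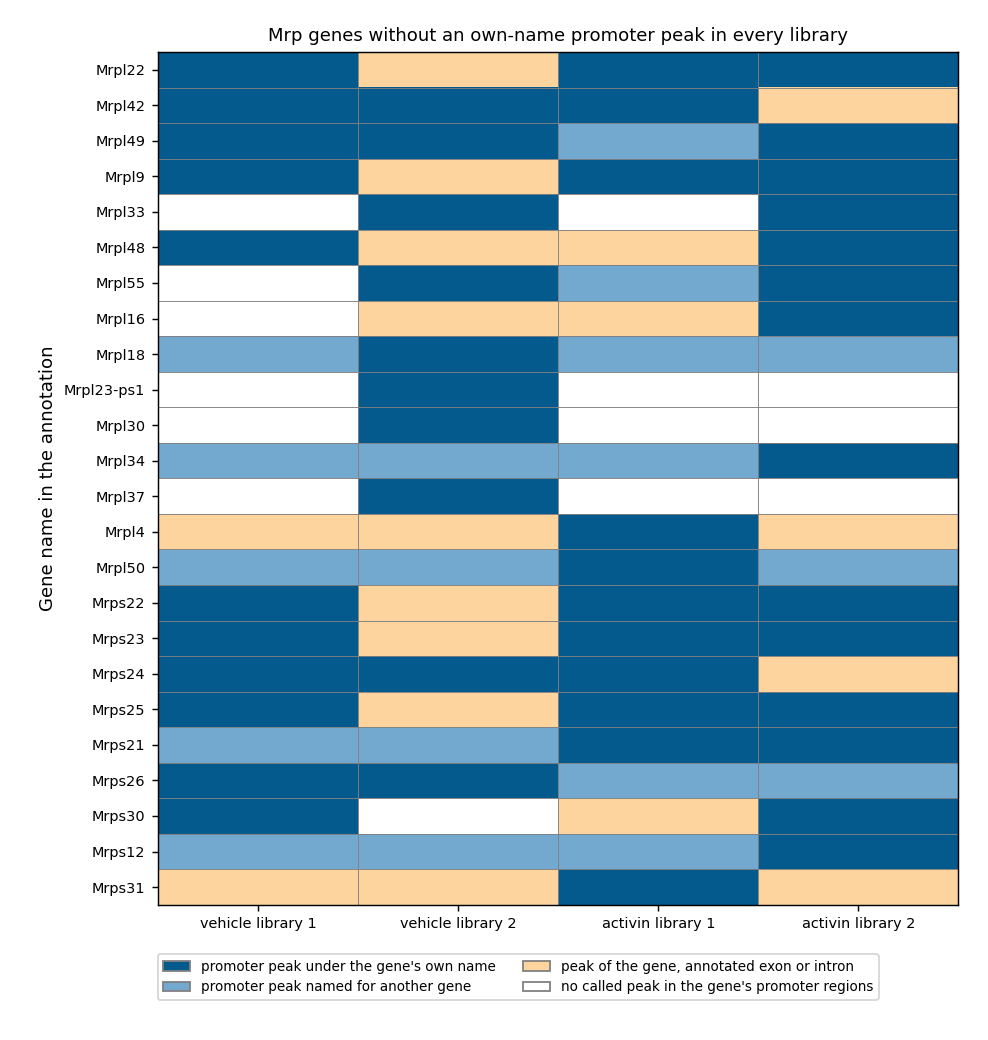
The 24 Mrp genes (rows) that lacked a promoter peak under their own name in at least 1 of the 4 libraries (columns). Colour gives what was at the region: 18 of the 50 gaps held a promoter peak named for another gene, 18 a peak labelled exon or intron, and 14 no called peak.

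The strongest of these partly present genes had strong peaks in all 4 libraries, and only the name changed. Peak strength is given as column 9 of the peak list, the −log10 of the q-value of the authors' peak caller, which is the authors' own value, describes a peak within its list, and depends on that library's depth and background. Mrpl18 was named in vehicle library 2 alone, with 44.9, and the same promoter was called as Tcp1, a cytosolic chaperonin subunit gene, with 51.0 in vehicle library 1 and 82.7 and 60.3 with activin. Mrps12, a protein of the decoding centre, was named in activin library 2 alone, with 37.6, and stood as Sars2 with 27.4 and 23.6 with vehicle and 46.0 in activin library 1. Mrps26 had its own name in both vehicle libraries, with 26.4 and 33.6, and the name 4930473A02Rik in both activin libraries, with 49.3 and 40.4. By name Mrps26 would thus read as absent with activin, although its column 9 was higher in each activin library than in either vehicle library. Mrpl50 was named in activin library 1, with 33.2, and stood as Zfp189 with 17.96 and 15.7 with vehicle and 21.4 in activin library 2.

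A further group of gaps came from the class of the annotation. Mrpl4, a large subunit protein, was a promoter peak in activin library 1 with 19.7 and an exon peak with 14.2 and 8.41 in the vehicle libraries and 14.7 in activin library 2. Mrps24 was a promoter peak at its start with 13.1 in vehicle library 1 and 29.9 in activin library 1 and an exon peak with 19.5 in activin library 2. In vehicle library 2 its start was also under an exon peak, with 16.7. The promoter peak of its name in that library was a weaker one, with 1.37, at another start 8.76 kb away. Mrps23, Mrps25, Mrpl9 and Mrpl42 were promoter peaks in 3 libraries and exon or intron peaks in the remaining library. At these 4 genes a peak of some class was called in every library. Mrpl34 was named in activin library 2 with 17.8 and stood at a wider peak of Abhd8 with 12.0, 9.43 and 23.1 in the others. Mrps21 was named in both activin libraries, with 10.8 and 5.78, and stood as C920021L13Rik in both vehicle libraries, with 4.71 and 6.65.

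The 14 gaps with no called peak belonged to 7 genes. At Mrpl16 in vehicle library 1, Mrps30 in vehicle library 2 and Mrpl55 in vehicle library 1 no peak was called, while the peaks called there in other libraries reached 5.98, 3.95 and 2.96 in column 9. The other 11 such gaps were at 4 genes with weaker peaks. The pseudogene Mrpl23-ps1 was called in vehicle library 2 alone, with 1.86, and so were Mrpl30 with 1.201 and Mrpl37 with 1.47. Mrpl33 was called in vehicle library 2 with 1.48 and in activin library 2 with 1.54. The lowest value that entered any list was 1.00, and those of these 4 genes lay near it. The promoters that the identifiers assign to the last 3 genes were called in all 4 libraries under the names Mitd1, Cyb5rl and RP24-80F7.7.

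Counting any peak over a RefSeq start, whatever its name, covered 69 and 68 of the 75 Mrp starts with vehicle and 71 and 72 with activin. In every library 66 starts were covered (88.0%), against 32.7% of all 32851 starts, 88.0% of cytosolic ribosomal protein starts, 88.0% of oxidative phosphorylation starts and 92.6% of the other mitochondrial translation starts. By gene, 60 of 69 were covered in every library and 3 in none. Those 3 were Mrpl3, Mrpl43 and Mrpl20, and Mrpl20 had a peak of its own name in every library downstream of the start in the table. By name, 17 of the 78 protein-coding Mrp genes of RefSeq had no promoter peak in any library. For 10 of these the start was covered in every library under another name: Mrpl21 (Ighmbp2), Mrpl32 (Psma2), Mrpl40 (Hira), Mrpl46 (Mrps11), Mrpl47 (Ndufb5), Mrpl58 (Ict1os), Mrps7 (Gga3), Mrps9 (Gm23126), Mrps18b (Ppp1r10) and Mrps27 (Ptcd2). Mrpl35 and Mrpl36 were covered in every library by an intron peak of their own name, Mrpl23 by an intron peak in activin library 2 alone, and Mrpl54 and Mrps35 had no start in the table.

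The paralogues Mrps18a, Mrps18b and Mrps18c, which share an ancestor with a bacterial small subunit protein, differed in peak strength. Mrps18b, at the peak named Ppp1r10, had column 9 values of 35.2 and 34.0 under vehicle and 60.4 and 37.7 with activin. Mrps18c had 8.50 and 6.97 with vehicle and 11.8 and 8.08 with activin. Mrps18a had 3.86 and 6.82 with vehicle and 9.56 and 5.87 with activin. Mrps18b was above both paralogues in each library, while Mrps18c was above Mrps18a in each library.

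Levels were compared over the 38 genes with a promoter peak in every library, using the strongest promoter peak of each gene name. For Mrps10, Mrps15 and Mrps28 the strongest promoter peak lay in different regions in different libraries. At Mrps28 it was the Tpd52 promoter in 3 libraries and its own start in activin library 2. The region at its own start held a peak in every library. Column 9 there was 41.5 and 29.3 under vehicle and 56.7 and 32.3 with activin. Only in activin library 2 was that peak annotated as a promoter of Mrps28. Density is the number of high-quality reads in the library's own peak, per kb of that peak, scaled to 1000000 high-quality reads of the library. Over genes, the mean of the 4 libraries ran from 1.33 to 8.79 in density, from 325 to 1200.2 bp in width and from 2.18 to 63.4 in column 9. The lowest column 9 was that of Mrps6, whose RefSeq start lay under a stronger promoter peak named Gm23210. That peak had 11.7 and 12.4 under vehicle and 27.9 and 17.5 with activin. The middle part of the list, from the lower to the upper quartile, spanned 2.31 to 3.80 in density, so a few promoters stood well above the rest.

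Mrpl28 and Mrpl17, which encode large subunit proteins, had the highest densities. At Mrpl28 the strongest peak was the one at the Axin1 promoter, with 8.77 and 6.68 with vehicle and 9.72 and 10.0 with activin. The peak over the RefSeq start of Mrpl28 was weak, and none was called there in vehicle library 2. Its column 9 was 2.38 in vehicle library 1 and 4.54 and 4.95 with activin. Its density was 5.53 in vehicle library 1 and 3.66 and 4.56 with activin. Mrpl17, whose peak covered its own start, had 8.07 and 6.84 with vehicle and 9.22 and 9.51 with activin. In both, the activin libraries lay above the vehicle libraries. Mrpl41, whose peak had the promoter label of Pnpla7, had 7.21 and 6.19 with vehicle and 8.52 and 7.45 with activin. Mrps16, a protein of the small subunit with a bacterial counterpart, had 5.75 and 5.92 with vehicle and 8.29 and 8.04 with activin. Mrpl14, here a peak labelled as a promoter of Tmem63b, had 6.73 and 5.50 with vehicle and 7.14 and 7.78 with activin. This peak lay 5.52 to 5.55 kb from the named start, while the RefSeq start of Tmem63b faced that of Mrpl14 at 131 bp. Again no activin library was below a vehicle library at these strongest peaks. In density this also held for 64.1% of the 6777 genes of any kind compared, and for 22 of the 38 Mrp genes (57.9%).

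The lowest densities belonged to Mrpl1, with 1.14 and 1.27 with vehicle and 1.41 and 1.52 with activin, and to 4 further large subunit genes. Mrpl53 had 1.66 and 1.21 with vehicle and 1.67 and 1.19 with activin, so its replicates differed more than its groups. Mrpl13 had 1.54 and 1.53 with vehicle and 1.59 and 1.57 with activin, the most even of the 5. Mrpl52 ran from 1.37 to 1.84 with overlapping groups. Mrpl57 had 1.59 and 1.504 with vehicle and 1.95 and 2.03 with activin.

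**Figure D3:**
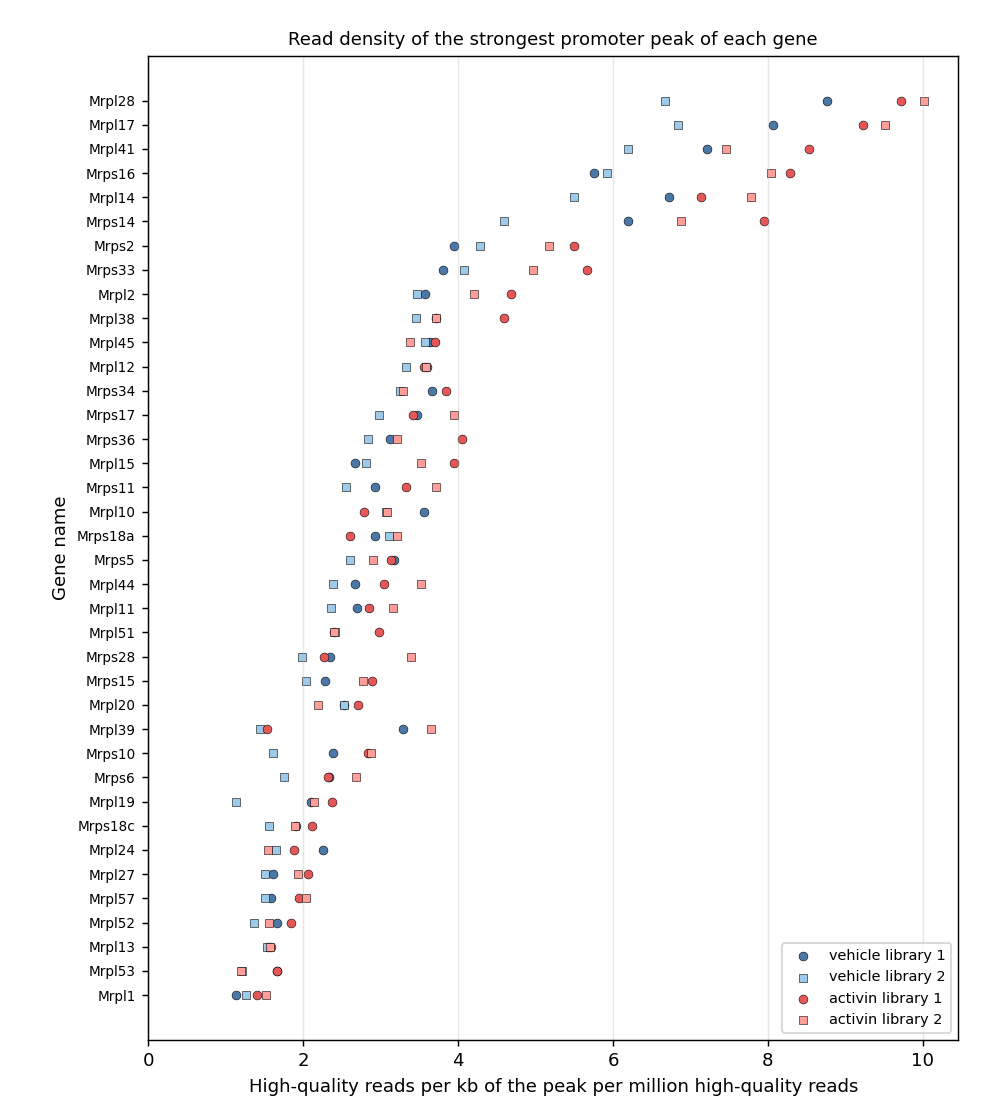
Read density of the strongest promoter peak (horizontal axis, high-quality reads per kb of the peak per 1000000 high-quality reads) for the 38 genes with a peak in every library, ordered by mean. Points are libraries: Mrpl17 reached 9.22 and 9.51 with activin against 8.07 and 6.84 with vehicle, and the quartiles of the gene means were 2.31 and 3.80.

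The widest peaks were those of Mrpl2, Mrpl41 and Mrpl51. Mrpl2, a protein near the peptidyl transferase centre, had widths of 1209 and 1180 bp under vehicle and 1256 and 1156 bp with activin. Mrpl41 had 1198 and 1151 bp with vehicle and 1262 and 1179 bp with activin. The groups overlapped at both. Mrpl51 had 1063 and 850 bp with vehicle and 1279 and 1526 bp with activin, without overlap. The narrowest was Mrpl24, with 162 and 195 bp with vehicle and 479 and 463 bp with activin, also without overlap. Mrpl14 at the peak labelled as a Tmem63b promoter ran from 310 to 393 bp. Mrpl19 and Mrps18a were tied for the next place, and Mrpl19 had 271 and 687 bp with vehicle and 337 and 286 bp with activin. The order of widths was not that of densities: this Tmem63b peak was among the narrowest and the densest. The Mrpl14 peak at the gene's own start was weaker by column 9 in all 4 libraries, and it was 1489 to 2055 bp wide.

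The strongest peaks by column 9 were largely the densest. Mrpl17 had 55.5 and 48.4 with vehicle and 79.6 and 70.0 with activin. Mrpl28 at the Axin1 promoter had 41.8 and 34.5 against 64.5 and 57.2, and Mrps16 had 28.9 and 39.9 against 64.8 and 47.8. Mrpl41 had 33.6 and 32.3 with vehicle against 50.1 and 38.1 with activin, and Mrps14 had 25.1 and 24.4 against 45.6 and 32.5. At each of these 5 genes both activin libraries exceeded both vehicle libraries, as did 75% of all 7003 genes with a promoter peak in every library.

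For the whole list the medians moved the same way. The median width was 546 and 563.5 bp under vehicle and 649 and 600.5 bp with activin, or 555 ± 12.4 against 625 ± 34.3 bp (SD, n = 2 libraries), a difference of 70.0 bp (exact permutation p = 0.333, the smallest the design allows). Median column 9 was 6.50 and 6.90 under vehicle and 12.1 and 9.81 with activin, or 6.70 ± 0.284 against 10.96 ± 1.62 (exact permutation p = 0.333, n = 2). Median density was 2.93 and 2.58 under vehicle and 3.01 and 3.25 with activin, or 2.76 ± 0.242 against 3.13 ± 0.168 (exact permutation p = 0.333, n = 2). None of the 3 measures overlapped between groups, and none could pass 0.05 in this design.

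Promoter peaks of all genes moved in the same direction. In width, each activin library exceeded each vehicle library at 14 of 38 Mrp genes (36.8%), where 42.1% of all 7003 genes with a promoter peak in every library did so. In column 9 this held for 25 (65.8%), against 75% of all genes. In density it held for 22 (57.9%), against 64.1% of the 6777 genes with a density, and in the authors' fold enrichment for 23 (60.5%), against 60.7%. Each activin library was below each vehicle library in width, column 9 and density at 0 Mrp genes (all genes: 4.74%, 0.8% and 2.29%) and in fold enrichment at 2 (all genes: 1.56%). Without Mrps10, Mrps15 and Mrps28, a restriction added after seeing the data, the counts above were 14, 22, 20 and 21 of 35 for width, column 9, density and fold enrichment. The shares of all genes whose strongest peak stayed in the same region were 42.6%, 75.6%, 65% and 61.1%. The Mrp shares were at or under the background in the upward direction with and without these genes.

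The median over all such genes was 777 and 809 bp in width with vehicle and 925 and 863 bp with activin, above the Mrp median in each library. All-gene column 9 medians were 10.6 and 9.55 with vehicle and 18.4 and 13.9 with activin, and those of density 3.14, 2.73, 3.59 and 3.42 in the same order. Mrp promoter peaks were thus narrower, less dense and of lower column 9 than the median gene in all 4 libraries. They were narrower, too, than those of the 3 comparison lists in each library. Divided by the median over all promoter peaks of the same library, which include those of genes found in some libraries only, Mrp density was 1.06 and 1.204 under vehicle and 1.00 and 1.07 with activin, so the direction of the difference turned (-0.0987, exact permutation p = 0.667, n = 2).

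**Figure D4:**
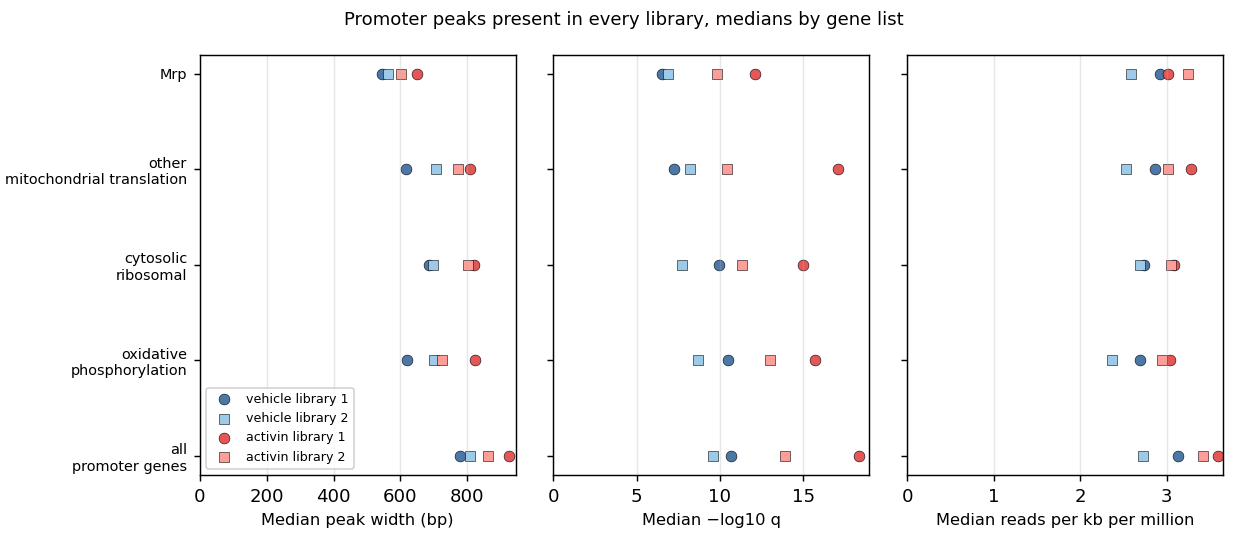
Medians over genes with a promoter peak in every library, for width (bp), column 9 (−log10 q) and density (reads per kb per 1000000 reads), by gene list (rows) and library (points). Within each library the Mrp median width, 546 to 649 bp, was the lowest of the lists, and activin libraries lay to the right of vehicle libraries in column 9 for each list shown.

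A peak with a −log10 q of at least 5 was found for 31 and 27 Mrp genes with vehicle and for 43 and 38 with activin. The difference in gene number thus grew from 2 to 11.5 when weak peaks were left out. The share of the 62 genes stood at 50% and 43.5% with vehicle and 69.4% and 61.3% with activin. Among the other mitochondrial translation genes the vehicle libraries gave 65.9% and 59.1%, and the activin libraries gave 81.8% and 65.9%. Cytosolic ribosomal protein genes rose from 68.1% and 62.3% with vehicle to 89.9% and 76.8% with activin. Oxidative phosphorylation genes rose from 68.3% and 65.1% to 82.5% and 73.0%. Of all 15603 gene names with a promoter peak, 42.0% and 39.5% had such a peak under vehicle, and 49.9% and 46.4% under activin.

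Change with activin was then tested region by region. Peaks of the 4 libraries were merged where they overlapped, and 13871 autosomal regions with exactly 1 peak per library and a common part of at least 50% of their union were fitted with limma on log2 density, centred on each library's median. The 215 Mrp peaks fell in 70 regions, of which 57 held a peak of any name in every library and 40, of 38 genes, could be tested. No Mrp region was called: 0 of 40 had a Benjamini-Hochberg adjusted limma p under 0.05, where 0 of all 13871 were called (0%), and the smallest adjusted p was 0.435 among Mrp regions and 0.184 among all. At an unadjusted p under 0.05, 0 Mrp regions were higher with activin and 5 were lower, against 3.62% and 5.91% of all regions and 4.66% and 3.5% of shared promoter regions. These counts depended on the scaling. With libraries scaled to all high-quality reads, 14 Mrp regions were higher and 0 lower, against 4358 and 204 of all 13871 regions. Without division by peak length the Mrp counts were 3 and 2, against 479 and 918 of all regions. With a replicate block they were 1 and 2, and centred on promoter regions they stayed at 0 and 5.

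The Mrp regions lay close to the centre of all regions. Their log2 changes ran from -0.33 to 0.35 with a median of 0.05, 23 above zero and 17 below. The median was -0.00 over all shared regions and 0.03 over the 6978 shared promoter regions. The median standard error of an Mrp region was 0.115, so most changes were of the size of their error. Centred density was higher in each activin library than in either vehicle library at 5 Mrp regions (20.9% of all regions; 25.4% of promoter regions) and lower at 7 (20.5% and 15%). The 16 Mrps regions had a median of -0.01 and the 24 Mrpl regions 0.05.

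**Figure D5:**
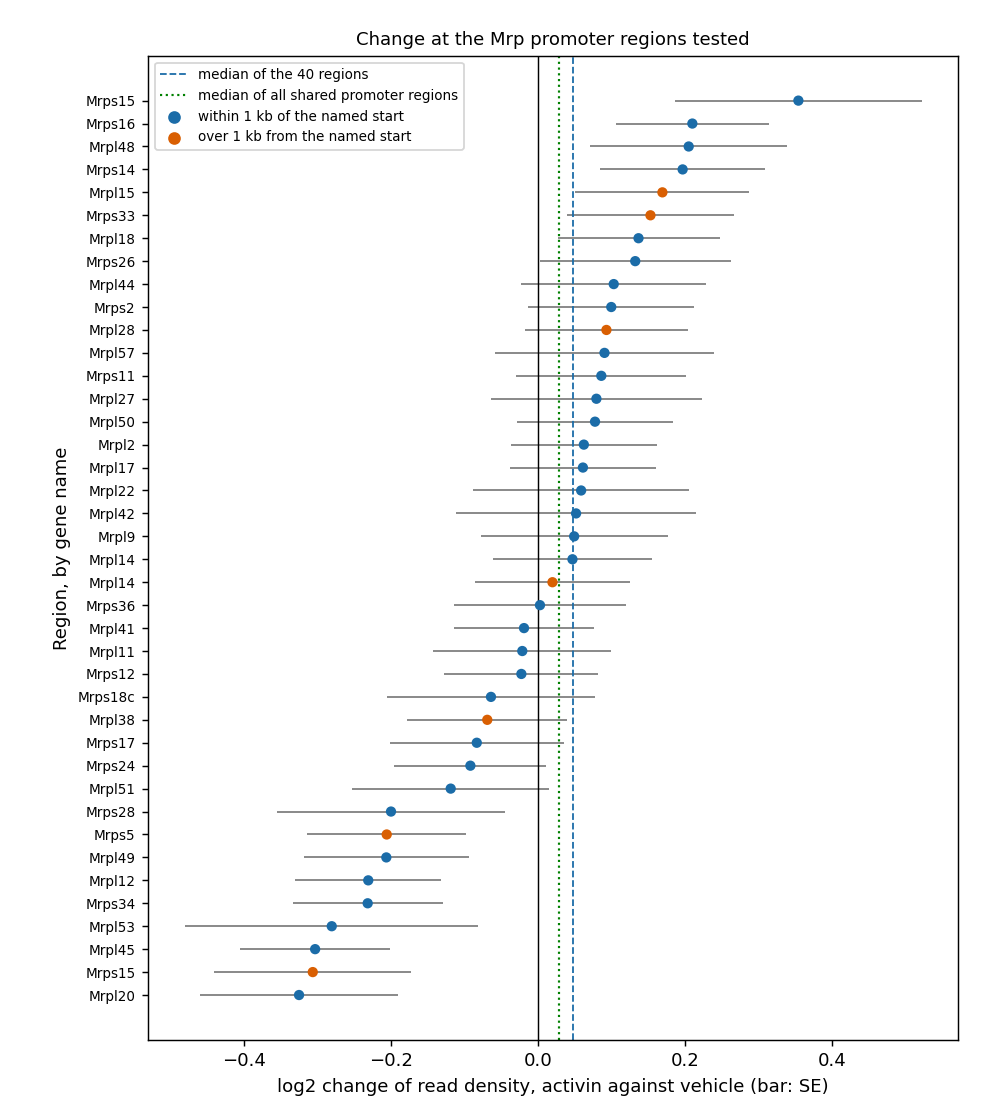
Log2 change of read density with activin against vehicle (horizontal axis; point, estimate; bar, SE) at the 40 Mrp promoter regions tested, centred on each library's median over all shared regions. The estimates ran from -0.33 to 0.35 around a median of 0.05, and none had an adjusted limma p under 0.05.

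The changes below are relative to the median region. When libraries were scaled to all their high-quality reads instead, the median of all regions was 0.27 higher with activin, and a region can then be even in density and still lie below the others. The lowest values were at Mrpl20, Mrps15, Mrpl45, Mrpl53 and Mrps34. Mrpl20 (chr4:155803329-155804176) had densities of 2.52 and 2.53 under vehicle and 2.71 and 2.19 with activin, so the groups overlapped. The log2 change there was -0.33, with an SE of 0.13 (limma, adjusted p = 0.507); errors of log2 changes are SE throughout. Its peak was 830 bp wide in activin library 2 and 433 to 553 bp in the others, and without division by peak length the change was -0.0192. The annotation gave the name Mrps15 to a region (chr4:126058173-126058829) at the Oscp1 promoter, with 2.28 and 1.85 against 2.08 and 1.95 and a log2 change of -0.31 ± 0.13 (limma, adjusted p = 0.524). Both had densities that overlapped between the groups.

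Mrpl45, which lies at the exit of the peptide tunnel and anchors the ribosome to the inner membrane, had the smallest p of the Mrp regions. Its densities were 3.64 and 3.57 with vehicle and 3.70 and 3.38 with activin, with a log2 change of -0.30 ± 0.10 (limma, unadjusted p = 0.0159, adjusted p = 0.435; chr11:97315490-97316093). This region covers the promoter shown above with 2 NRF1 matches. Mrps34, a small subunit protein, had 3.66 and 3.25 with vehicle and 3.84 and 3.29 with activin, and a log2 change of -0.23 ± 0.10 that became 0.04 on the scale of all high-quality reads (limma, adjusted p = 0.524). Mrpl53 had a log2 change of -0.28 ± 0.20 (limma, adjusted p = 0.667), with the overlapping densities given above. The fifth region with an unadjusted p under 0.05 was that of Mrpl12 (limma, unadjusted p = 0.0448, adjusted p = 0.518), a stalk protein of the large subunit, with 3.60 and 3.33 with vehicle and 3.56 and 3.58 with activin. It is named here because it completes the 5, after its values were seen.

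The highest value was at the start of Mrps15 itself (chr4:126046728-126047533). Its densities were 1.64 and 2.04 with vehicle and 2.89 and 2.77 with activin, without overlap, and the log2 change was 0.35 ± 0.17 (limma, adjusted p = 0.536). Column 9 there was 4.22 and 8.71 under vehicle and 14.7 and 10.1 with activin. The peak was 806 bp wide in vehicle library 1 and 606 to 616 bp in the others, and without division by peak length the change was -0.00218. It was 0.11 without vehicle library 1 and 0.60 without vehicle library 2. The regions named Mrps15 thus included both the highest change, at its own start, and the next to lowest, at the Oscp1 promoter 11.5 to 11.6 kb away.

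Mrps16 had the next highest change, 0.21 ± 0.10 (limma, adjusted p = 0.554), with the densities given above, which did not overlap. Mrpl48 had 1.86 and 1.55 with vehicle and 2.48 and 2.27 with activin, and a change of 0.20 ± 0.13 (limma, adjusted p = 0.646). Mrps14, a small subunit protein with a bacterial counterpart, had 6.20 and 4.59 against 7.94 and 6.87, and a change of 0.20 ± 0.11 (limma, adjusted p = 0.604). Mrpl15, a large subunit protein, had 2.67 and 2.82 against 3.95 and 3.52, and a change of 0.17 ± 0.12 (limma, adjusted p = 0.662).

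Regions were also chosen by position, an alternative added after seeing the data. Of the regions over a RefSeq start of an Mrp gene, under any name, 49 could be tested, 0 were called, and the median log2 change was 0.06. Centred density was higher in each activin library than in either vehicle library at 11 of these and lower at 7. Among all regions the shares were 20.9% and 20.5%, and among promoter regions 25.4% and 15%. At an unadjusted limma p under 0.05, 1 was higher and 3 were lower, against 3.62% and 5.91% of all regions. The higher one was a promoter region of Mrpl48 named Gm14382 in the annotation (chr7:100607099-100608700), with 3.75 and 3.42 with vehicle and 5.64 and 5.11 with activin, and a log2 change of 0.31 ± 0.09 (limma, unadjusted p = 0.00815, adjusted p = 0.412). It is named after its values were seen. A further start of Mrpl48 lay in a tested region (chr7:100590826-100591501) with a log2 change of 0.03 ± 0.11 (limma, adjusted p = 0.948).

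The rest of the mitochondrial translation apparatus was followed through a list of ribosomal proteins with other symbols, translation factors, assembly and RNA maturation factors, activators and mitochondrial aminoacyl-tRNA synthetases. Of its 30 testable regions 0 were called, 17 lay above zero and 13 below, with a median of 0.05, and 0 had an unadjusted p under 0.05 in either direction. The region shared by Mrps12 and Sars2 (log2 change -0.02) is counted both here and among the Mrp regions. The lowest were Mtfmt, which formylates the initiator methionyl-tRNA, with -0.29 ± 0.14 (limma, adjusted p = 0.540), and Mtif3, an initiation factor, with -0.25 ± 0.18 (limma, adjusted p = 0.674), which became 0.02 on the scale of all high-quality reads. The highest were Mtrf1l, a release factor, with 0.24 ± 0.15 (limma, adjusted p = 0.624), and Aurkaip1, a protein of the small subunit, with 0.17 ± 0.12 (limma, adjusted p = 0.681). The medians of the other lists were -0.01 over 48 cytosolic ribosomal protein regions and 0.01 over 43 oxidative phosphorylation regions, with 0 called in each.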

How the data were processed

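ATAC-seq was done on 4 libraries of LβT2 (LβT2b in the titles) cells, grouped by the sample titles. Per the labels' protocols, 50000 cells went into each transposase reaction. The authors deposited, per library, broad peaks called for each library separately, their HOMER annotation per the file headers, and an ataqv 1.3.1 quality report per the file headers. Bowtie2, MACS2, HOMER, GRCm38 and mm10 are listed in the submitters' processing notes, with no role. Per the deposited lists' layout, the columns hold a score, a fold ratio against the caller's background, −log10 p-values and −log10 q-values. The read numbers come from the deposited ataqv reports, which count high-quality autosomal alignments over each peak of the library's own list.

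From these, limma 3.58.1 in R 4.3.3 (lmFit, eBayes with trend, no block) was fitted to log2((reads + 1) per kb), centred on each library's median, over all 13871 shared regions, with Benjamini-Hochberg adjustment at 0.05. Fold changes on this scale understate those of regions with few reads. The limma step was checked with simulated reads for activin against vehicle at 13871 regions: of 200 given a log2 change of 1 it called 180, with 0 wrong signs, and it called 5 of the unchanged ones. Smaller changes were not simulated, so recovery of changes of the size estimated at Mrp regions (-0.33 to 0.35) was not tested. Positions are those of the files, counted from 1. Of 26 pairs of overlapping RefSeq windows on opposite strands, 26 were identical. Motif letters, list medians and start coverage were computed with Python 3.11.15 and pandas 2.3.3.

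Named by rule were any region called, the 5 highest and 5 lowest changes and mean densities, the 3 widest and 3 narrowest, the 5 highest in column 9, the 12 strongest genes found in some libraries only, the Mrps18 paralogues and Mrp genes without a promoter peak. The members, lists and rules were chosen with earlier results of these data known.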

Additional observations from a re-analysis of the deposited data

How the results depend on the processing

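Over all shared regions, the number called with limma changed from 0 to 39 without division by peak length, 605 when scaled to all high-quality reads, 1 with a pseudocount of 10 reads and 4 with a replicate block. Leaving out 1 library gave 0 to 9 (1 without activin library 1, 9 without activin library 2), with the lone library assumed to vary like the others. The replicate block called 0 Mrp regions; same-numbered libraries did not deviate together (r = -0.03 over 13871 regions), and the labels give no pairing. Mrp regions called stayed at 0 except when scaled to all high-quality reads, where 1 was called, Mrps15 at its own start (log2 change 0.63, limma, adjusted p = 0.0388, range over its alternatives 0.0388 to 0.997). The Mrp median log2 change of 0.05 became -0.00638 without division by length, 0.32 when scaled to all reads, 0.0259 when centred on promoter regions, -0.0253 with a common part of at least 80% and 0.0919 with no rule on the common part. Leaving out 1 library gave -0.000834 (vehicle library 1) to 0.0435, so the median turned negative in 3 alternatives, with 0.02 without vehicle library 2 and 0.02 without activin library 2. Other changes that reversed were the Mrps15 region at Oscp1 (0.0485) and Mrps15 at its own start (-0.00218) without division by length, Mrps34 (0.0418) and Mtif3 (0.0201) when scaled to all reads, Mtif3 without 1 library (-0.514 to 0.00690, the highest without activin library 1), and the difference in median density relative to all promoter peaks (-0.0987). Leaving out 1 library gave 0.110 to 0.597 at the Mrps15 start, -0.482 to -0.0795 at Mrpl53, 0.0668 to 0.326 at Mrps14, 0.101 to 0.319 at Mrps16, 0.0431 to 0.295 at Mrpl15, -0.472 to -0.101 at Mtfmt, 0.0262 to 0.461 at Mtrf1l and 0.0234 to 0.315 at Aurkaip1. The cause was not tested. Leaving out 1 library gave a difference of 0.5 (activin library 2) to 3.5 (activin library 1) in gene number, 45.8 to 94.2 bp in median width, 3.12 to 5.40 in median column 9 and 0.205 (vehicle library 2) to 0.547 (vehicle library 1) in median density. The other alternatives kept the direction of these 4 differences. Gene counts by name or identifier, fits of regions within 1 kb and all values over RefSeq starts were chosen after seeing the data, as was the restriction to genes whose strongest peak stayed in the same region (differences of 73.0 bp, 3.98 and 0.248). Depth limits weak peaks: presence depends on each library's own list.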
